A study of Homo sapiens with 21 samples.

Results

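The comparison sets 3 libraries of senescent fibroblasts depleted of CCND1, which encodes cyclin D1, directly against 3 libraries depleted of CDK6, 1 of its partner kinases. These 6 of the series' 21 libraries were chosen by their labels alone, and 11113 of the 16383 genes in the table entered the test because at least 3 of the 6 libraries held a normalised read count of 10 or more. All 6 come from IMR90 cells, a strain of normal human lung fibroblasts with a finite lifespan, irradiated here to make them senescent, transfected with 5 nM siRNA on day 4 and again on day 7, and collected on day 10. The other groups used here, of 3 libraries each, were irradiated and handled on the same days and were given 1 of 2 control siRNAs without a target (NT3 or NT4), siRNA against CDK4, or siRNAs against both CDK4 and CDK6 (dual knockdown). A last group of 3 was proliferating and, per the labels, neither irradiated nor transfected. The labels name 1 siRNA per target and give no siRNA sequence, so an effect of a reagent outside its target cannot be told apart from an effect of losing the target.

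Cyclin D1 is a regulatory subunit that activates the kinases CDK4 and CDK6. The active complexes phosphorylate the retinoblastoma protein RB, which releases E2F factors to transcribe genes of DNA replication, and they are held back by the INK4 inhibitors (CDKN2A, CDKN2B, CDKN2C) and bound by the CIP/KIP inhibitors (CDKN1A, CDKN1B). CDK6 is also known to act at chromatin as a cofactor of transcription factors, NF-kB among them. Senescent cells stop dividing and secrete cytokines, chemokines, proteases and matrix proteins, the senescence-associated secretory phenotype, much of which NF-kB transcribes.

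Reads counted to genes of the table numbered 15455036 to 17592641 per library in the 6 libraries, within the 12892442 to 21822152 of all 21, and 7.66 to 8.48% of them fell on the 10 most abundant genes. The 15 fibroblast markers, led by collagens, summed to 618738 to 672118 normalised reads per library in CCND1 knockdown and 596023 to 645586 in CDK6 knockdown. Summed epithelial markers (12 genes) stayed at 1998 to 2175 and 1822 to 2065, with the basal keratin KRT5 at 0 in all 6. Summed leukocyte markers (12 genes) were at 892 to 1060.0 and 1068 to 1141, with AIF1 at 0 in all 6. Summed endothelial markers (9 genes) were at 2903 to 3304 and 4109.9 to 4521, nearly all of it TEK, a receptor tyrosine kinase, which was itself higher in CDK6 knockdown (log2 difference, CCND1 minus CDK6 knockdown, -0.48, SE 0.10, limma adjusted p = 0.00207). Fewer cells making a transcript and less of it per cell cannot be told apart in these bulk libraries, and nothing in the labels says whether the 3 libraries of a group came from separate cultures, so p-values measure the spread between these libraries.

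The targets were read first, as a check of the labels. CCND1 (ENSG00000110092) had normalised read counts of 4552, 4198 and 5149 in CCND1 knockdown and 54505, 57146 and 54413 in CDK6 knockdown, so that CCND1 knockdown held 8.37% of the transcript found in CDK6 knockdown. The other target, CDK6, was at 834, 727 and 759.7 in CDK6 knockdown and at 4853, 5318 and 5209.7 in CCND1 knockdown, or 15.1%. On the log2 scale the differences were -3.58 (SE 0.09) and 2.73 (SE 0.09), and both exact two-sided permutation tests gave p = 0.1, the smallest that 20 splits of 3 against 3 allow. Each library thus held its own target at a reduced level, with transcript remaining, and kept the other. Only RNA was measured here. CCND1 in CDK6 knockdown also stood above all 6 non-targeting libraries (25615 to 48813), by 0.53 (SE 0.08, limma adjusted p = 2.27e-05), while CDK6 in CCND1 knockdown lay within the non-targeting range of 4147 to 5689 (0.13, SE 0.08, adjusted p = 0.216).

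**Figure D1:**
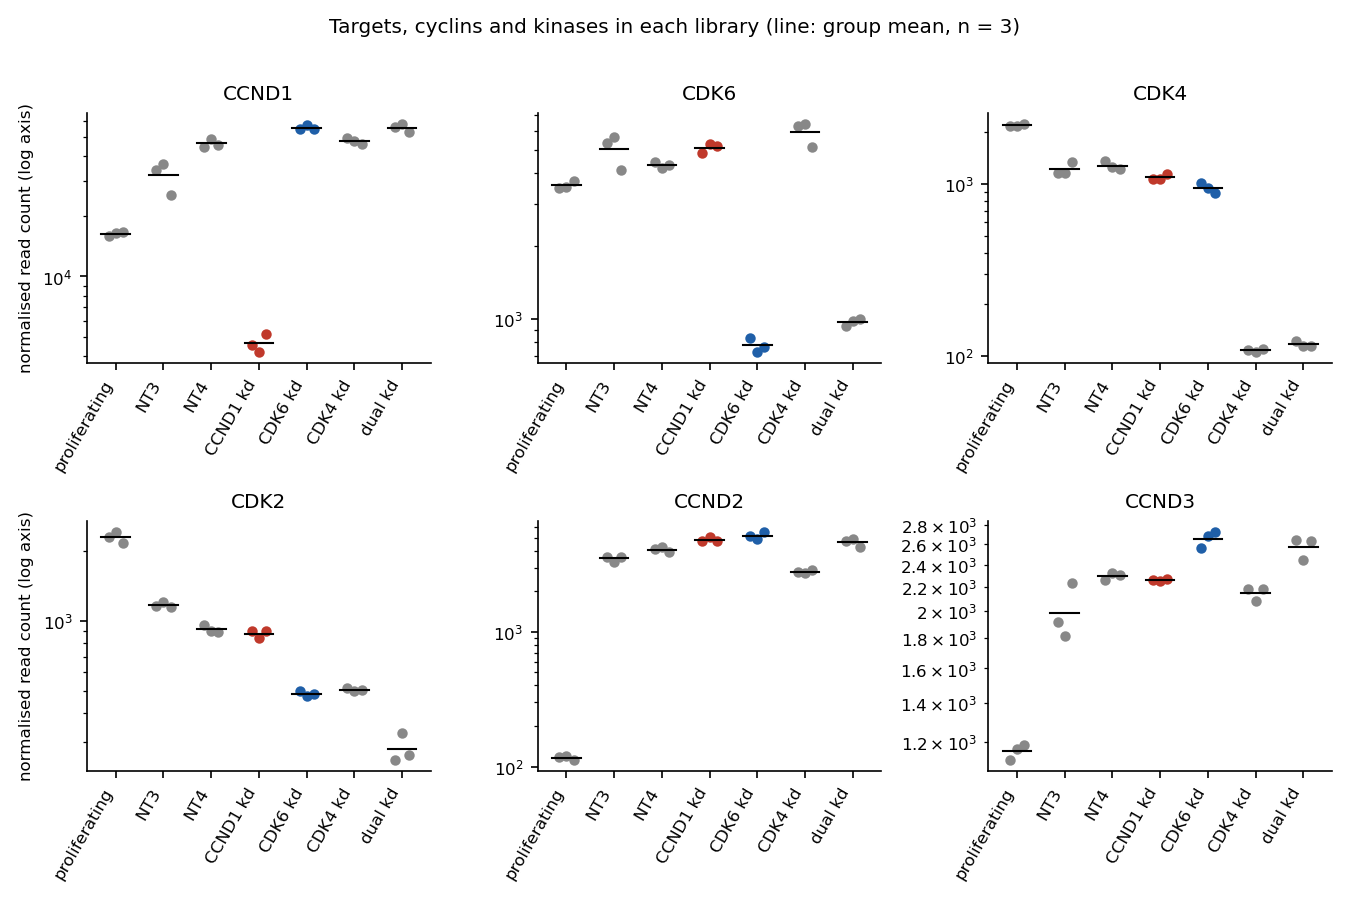
Normalised read counts (log axis) of CCND1, CDK6, CDK4, CDK2, CCND2 and CCND3 in every library of the 7 groups, with a line at each group mean (n = 3); kd is knockdown. CCND1 libraries are red and CDK6 libraries blue: CCND1 falls to 4198 to 5149 in the red points, CDK6 to 727 to 834 in the blue ones, and CDK2 is at 475 to 497 in the blue points against 839.7 to 902 in the red.

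The knockdowns parted at 1436 of 11113 genes (12.9%; limma, adjusted p under 0.05), both targets among them. Of these, 795 genes (7.15%) were higher in CCND1 knockdown, with a median log2 difference of 0.40, and 641 (5.77%) were higher in CDK6 knockdown, with a median of -0.35. Of all genes tested, 76 (0.684%) passed and differed by more than 1 on that scale, 60 of them higher in CCND1 knockdown and 16 higher in CDK6 knockdown. The values of the 3 and 3 libraries did not overlap at 4155 genes (37.4%), and among the called genes they did not overlap at 788 and 633. The count depends on the spread taken from the other groups. It was 2436 without NT3 replicate 3, a control library that lies apart from its group, with 1325 higher in CCND1 knockdown and 1111 higher in CDK6 knockdown. List counts given below for that fit are to be read beside this rise over all genes. The count was 2449 (22.0%, with 11.7% higher in CCND1 knockdown and 10.4% higher in CDK6 knockdown) when the 6 libraries were fitted alone. Without 1 of the 6 libraries it was 936 to 1103, lowest without CDK6 knockdown replicate 3.

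**Figure D2:**
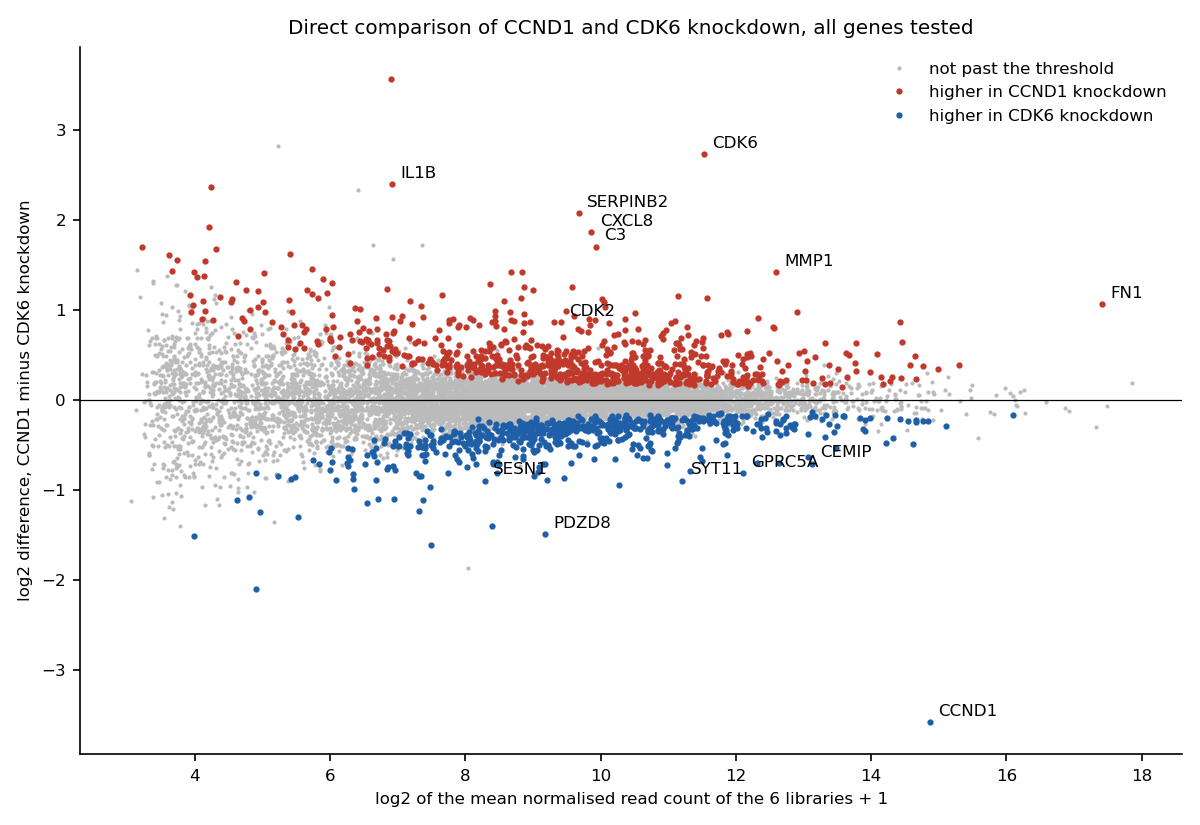
Each point is 1 of 11113 genes, with the log2 of its mean normalised read count over the 6 libraries plus 1 on the horizontal axis and the log2 difference, CCND1 minus CDK6 knockdown, on the vertical axis. Genes past the threshold are red where CCND1 knockdown is higher (795) and blue where CDK6 knockdown is higher (641). Apart from the targets, the labelled genes above 0 include SERPINB2, CXCL8, C3, MMP1 and FN1.

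Seen from the non-targeting libraries, 3577 genes (32.2%; 17.5% higher, 14.7% lower) differed from the mean of NT3 and NT4 in CCND1 knockdown and 4798 (43.2%; 22.0% higher, 21.1% lower) in CDK6 knockdown. Both comparisons use the same 6 non-targeting libraries, so their values are given side by side and no overlap is taken. With NT4 as the only control the CCND1 knockdown count was 2244. The 795 genes higher in CCND1 knockdown had a median difference from the controls of 0.04 in CCND1 knockdown and -0.38 in CDK6 knockdown. For the 641 genes higher in CDK6 knockdown the medians were 0.01 and 0.37.

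Within the cyclin D, CDK and RB axis, 24 of 28 listed genes were tested, and 13 passed, 10 higher in CCND1 knockdown and 3 higher in CDK6 knockdown (54.2% against 12.9% of all genes). The targets are among the 13. The 10 became 6 without CCND1 knockdown replicate 1 or CDK6 knockdown replicate 3. The 3 became 1 without CDK6 knockdown replicate 3, and 2 without CCND1 knockdown replicate 1 or CDK6 knockdown replicate 2. CDK2, the kinase that acts with cyclins E and A after CDK4 and CDK6, stood at 902, 839.7 and 899 in CCND1 knockdown and at 497, 475 and 482 in CDK6 knockdown. The difference was 0.86 (SE 0.08, limma adjusted p = 8.74e-08). The 6 non-targeting libraries ranged from 896 to 1199 (median 1051), so the CDK6 knockdown libraries lay below all of them and the CCND1 knockdown libraries at their lower edge. CDK4 knockdown (513, 497 and 502) held CDK2 at the level of CDK6 knockdown, and dual knockdown was lower still (252, 328 and 264; log2 difference from CDK4 knockdown -0.85, adjusted p = 1.70e-08).

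The INK4 inhibitor CDKN2B was at 291, 258 and 294 in CCND1 knockdown and at 134, 157 and 163 in CDK6 knockdown (0.89, SE 0.10, adjusted p = 1.85e-06), both under every non-targeting library (467 to 513). CDKN2A, also an INK4 gene, had a mean of 133 ± 10.6 (SD, n = 3) against 98.2 ± 12.9, without overlap between the libraries (0.44, SE 0.12, adjusted p = 0.0149), again under all non-targeting libraries (188 to 252). Its call was lost without CCND1 knockdown replicate 1 or 2 or CDK6 knockdown replicate 3. How any reads shared by CDKN2A and CDKN2B were counted is not given in the sources used here. The CIP inhibitor CDKN1A, a p53 target, was at 28132, 27345 and 28575 against 23532, 24235 and 24042 (0.23, SE 0.05, adjusted p = 0.00356).

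Of the remaining D-type cyclins, CCND3 was at 2258, 2254 and 2272 in CCND1 knockdown and at 2563, 2679.8 and 2722 in CDK6 knockdown (-0.23, SE 0.06, adjusted p = 0.0156), a call lost without CDK6 knockdown replicate 2 or 3. CCND2 was at 4749, 5040.1 and 4693 against 5119, 4912 and 5471, with overlapping libraries (-0.10, SE 0.06, 95% interval -0.22 to 0.03, adjusted p = 0.342). Both knockdowns held CCND2 above all 6 non-targeting libraries (3314 to 4240.2), by 0.35 (adjusted p = 3.05e-05) and 0.45 (adjusted p = 6.45e-07). CDK4 was at 1072, 1073 and 1148 against 1015, 946 and 889 (0.21, SE 0.07, adjusted p = 0.0486), close to the threshold and lost in 13 of 24 alternative fits. RB1 differed by 0.01 (SE 0.09, adjusted p = 0.953) and CDKN1B by -0.26 (SE 0.11, adjusted p = 0.143), and neither passed.

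Secretory phenotype genes that passed were mostly higher in CCND1 knockdown. Of 46 listed secretory genes 41 were tested, and 28 of them passed (68.3%), 25 higher in CCND1 knockdown (7.15% of all genes) and 3 higher in CDK6 knockdown. The list's median difference was 0.48, beside 0.00 over all genes. Against the mean of NT3 and NT4, 24 members were lower in CCND1 knockdown (median -0.44; 14.7% of all genes) and 29 in CDK6 knockdown (median -0.91; 21.1% of all genes). The count higher in CCND1 knockdown was 13 without CCND1 knockdown replicate 3 and 17 to 25 without another of the 6 libraries. The median without CCND1 knockdown replicate 3 was 0.46. That library was the highest of its group for CXCL8, IL6, IL1A, IL1B and C3. CDK6 knockdown replicate 2, in the same run of 6 consecutive header numbers, was the highest of its group for the same genes. Leaving out only 1 library of a run unbalances the runs, which the main fit does not use. The 3 higher in CDK6 knockdown became 5 without NT3 replicate 3. The list's count against the controls depends on which control is used: 25 members were lower in CCND1 knockdown than in NT3 alone (18.7% of all genes) and 11 lower than in NT4 alone (9.24% of all genes). For CDK6 knockdown the counts were 31 (23.6% of all genes) and 28 (15.7% of all genes).

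Promoters of 4 inflammatory genes described next are shown because each holds, within the 250 bases before its start, a match to the NF-kB word GGANNTTCC (searched on both strands; capitals). They are RefSeq sequences of the GRCh38.p14 build, plus strand, 5′ to 3′, each ending at the base before the start site, and lie at chr4:73740319-73740568 for CXCL8, chr7:22726950-22727199 for IL6, chr6:137867009-137867258 for TNFAIP3 and chr19:10270870-10271119 for ICAM1. The match begins 91, 72, 67 and 186 bases upstream of the start.
CXCL8: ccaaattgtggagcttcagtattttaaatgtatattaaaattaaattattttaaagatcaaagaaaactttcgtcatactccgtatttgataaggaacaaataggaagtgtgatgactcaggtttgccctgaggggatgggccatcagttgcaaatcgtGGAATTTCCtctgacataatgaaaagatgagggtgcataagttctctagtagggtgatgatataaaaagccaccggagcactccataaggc
IL6: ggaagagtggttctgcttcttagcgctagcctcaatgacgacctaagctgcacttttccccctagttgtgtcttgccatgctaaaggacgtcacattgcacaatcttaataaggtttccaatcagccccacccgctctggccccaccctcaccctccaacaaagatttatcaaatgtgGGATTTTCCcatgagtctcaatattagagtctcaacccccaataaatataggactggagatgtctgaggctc
TNFAIP3: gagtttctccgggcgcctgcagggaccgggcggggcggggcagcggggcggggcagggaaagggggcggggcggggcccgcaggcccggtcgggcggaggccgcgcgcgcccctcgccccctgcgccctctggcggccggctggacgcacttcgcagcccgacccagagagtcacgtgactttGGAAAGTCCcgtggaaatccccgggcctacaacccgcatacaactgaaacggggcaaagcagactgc
ICAM1: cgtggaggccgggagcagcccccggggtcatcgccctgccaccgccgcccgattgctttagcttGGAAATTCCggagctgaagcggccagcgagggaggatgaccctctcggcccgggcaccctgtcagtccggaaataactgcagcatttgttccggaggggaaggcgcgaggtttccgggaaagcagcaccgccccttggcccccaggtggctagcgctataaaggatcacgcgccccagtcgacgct
The word was found in 3.88% of all 27305 RefSeq promoters of this length and in 3.92% of the 9026 of tested genes. It was found in 5.41% of 647 promoters of genes higher in CCND1 knockdown and in 2.81% of 499 promoters of genes higher in CDK6 knockdown. Of the promoters found, 8 of 30 (26.7%) secretory genes and 5 of 25 (20%) NF-kB pathway genes held it. The windows of BIRC3 and SERPINB2 held no match, and a match is a description of the letters and not a site.

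CXCL8, the neutrophil chemokine interleukin 8, was at 1003, 1085 and 2268 in CCND1 knockdown and at 323, 667 and 238 in CDK6 knockdown, a 3.63-fold difference on the fitted scale (1.86, SE 0.30, limma adjusted p = 0.000235). The 6 non-targeting libraries ran from 1601 to 6662, and the CDK6 knockdown libraries lay below all of them. IL1B, an upstream cytokine of the same programme, was at 156, 173 and 275 against 28.5, 53.1 and 31.6 (2.39, SE 0.27, adjusted p = 2.30e-06), with non-targeting libraries at 177 to 774. The groups did not overlap for either gene. For both, CCND1 knockdown replicate 3 and CDK6 knockdown replicate 2 were the highest libraries of their groups.

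IL6, a cytokine of the acute phase response, was at 452, 476 and 953 in CCND1 knockdown and at 268, 347 and 209.8 in CDK6 knockdown (1.13, SE 0.27, adjusted p = 0.00664). IL1A, an interleukin 1 family cytokine, had a mean of 64.5 ± 36.2 (SD, n = 3) against 18.4 ± 2.71 (1.62, SE 0.40, adjusted p = 0.00899). Without CCND1 knockdown replicate 3 neither call was kept, and that of IL6 was also lost without CDK6 knockdown replicate 3. Against NT4 alone IL6 in CCND1 knockdown differed by 0.23 (adjusted p = 0.592), against NT3 alone by -1.89. The chemokine CCL20 and the growth factor CSF2 had few reads. CCL20 differed by 2.36 (SE 0.48, adjusted p = 0.00182) with at most 9.32 normalised reads in CDK6 knockdown, and CSF2 by 1.92 (SE 0.50, adjusted p = 0.0125). CCL20 ranged from 1.30 to 2.79 over the alternative fits and passed in all 23. CSF2 ranged from 1.09 to 2.49, and its call was lost with a pseudocount of 0.1 and without CCND1 knockdown replicate 3 or CDK6 knockdown replicate 1.

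SERPINB2, which encodes plasminogen activator inhibitor 2, varied little within the groups, at 1195, 1298 and 1466 in CCND1 knockdown and 279, 388 and 281 in CDK6 knockdown. It differed by 2.07 (SE 0.11, adjusted p = 9.62e-11). In CCND1 knockdown it lay inside the range of the non-targeting libraries (1011 to 1746; -0.02, SE 0.10, adjusted p = 0.882), and in CDK6 knockdown it was below all of them (-2.10, SE 0.10, adjusted p = 1.63e-12). The central complement component C3 was at 1052, 1099 and 2258 against 343, 836 and 262 (1.70, SE 0.37, adjusted p = 0.00368). MMP1, the interstitial collagenase, was at 8661, 8926 and 9261 against 3049, 3921 and 3109 (1.42, SE 0.09, adjusted p = 3.39e-10).

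**Figure D3:**
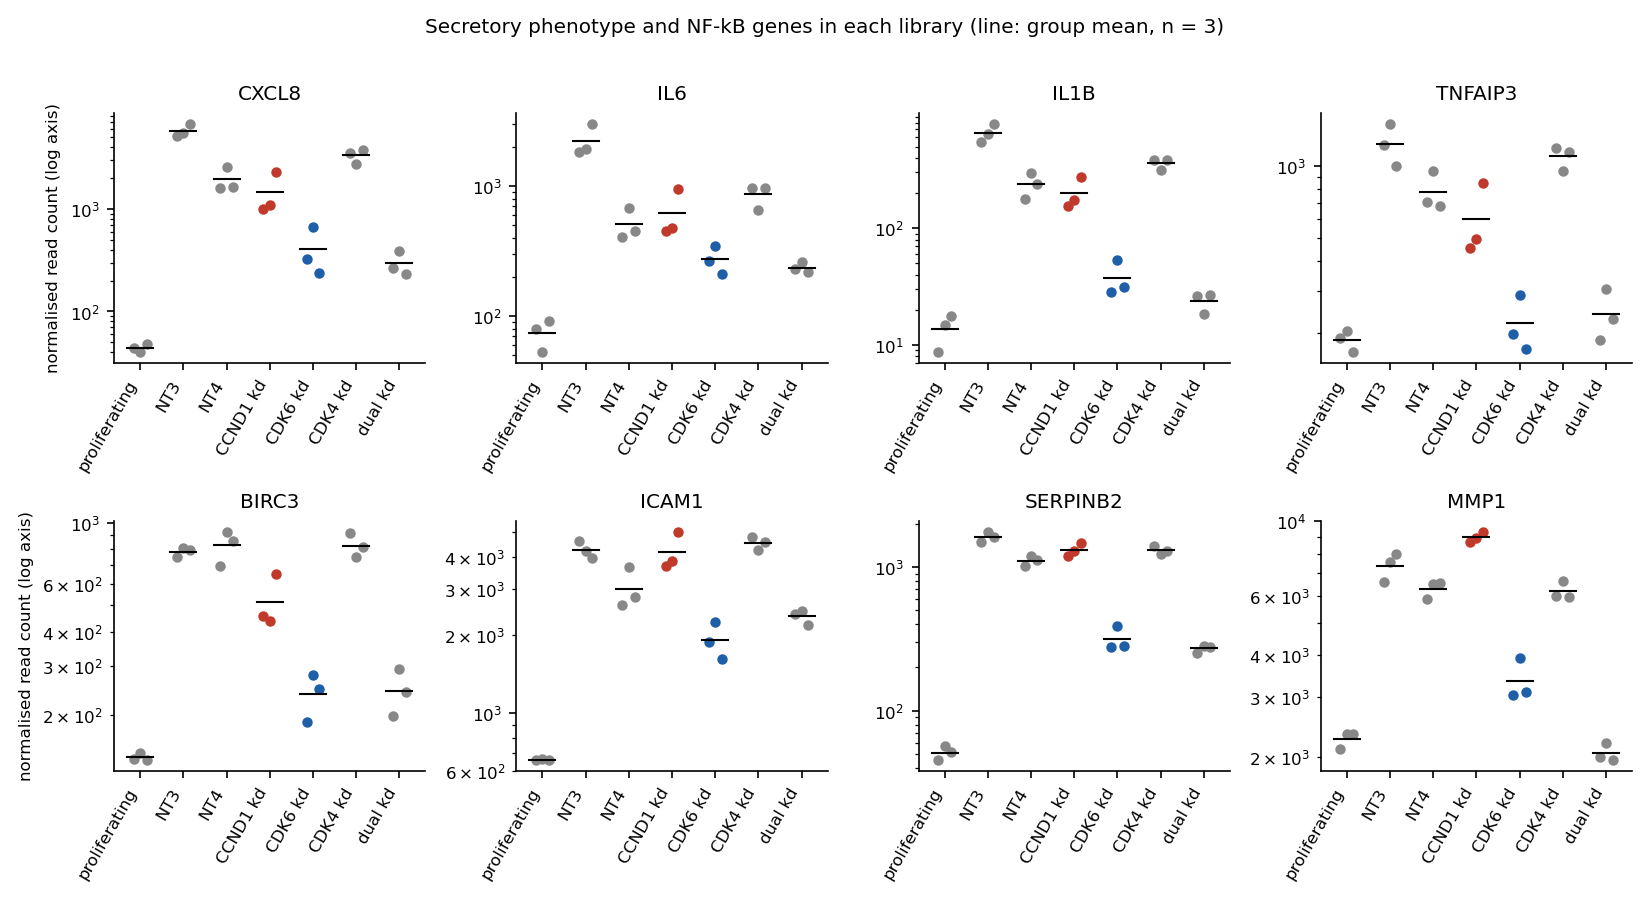
Normalised read counts (log axis) of 8 secretory and NF-kB genes in every library of the 7 groups, with a line at each group mean (n = 3); kd is knockdown. In every panel the 3 red points (CCND1 knockdown) lie above the 3 blue points (CDK6 knockdown); the red group of SERPINB2 (1195 to 1466) lies within the NT3 and NT4 points, and that of MMP1 (8661 to 9261) above them.

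Genes of the NF-kB pathway and its feedback that passed were higher in CCND1 knockdown. Of 29 tested members 12 passed (41.4%, against 12.9% of all genes, 7.15% in that direction), 17 did not, and the median difference was 0.30. By DESeq2 12 were higher in CCND1 knockdown and 1 in CDK6 knockdown. Without 1 of the 6 libraries the count was 7 to 15, lowest without CDK6 knockdown replicate 3. TNFAIP3, which encodes the feedback inhibitor A20, was at 454, 496 and 847 in CCND1 knockdown and at 198, 289.8 and 172 in CDK6 knockdown (1.42, SE 0.22, adjusted p = 0.000137). BIRC3, an inhibitor of apoptosis and ubiquitin ligase, was at 456, 439 and 653 against 189, 279 and 249 (1.10, SE 0.16, adjusted p = 4.46e-05). RELB, a subunit of the non-canonical branch, was at 438, 419 and 474 against 305, 331 and 238 (0.62, SE 0.12, adjusted p = 0.00117). All 3 genes lay below the mean of the controls in both knockdowns, with differences of -0.75, -0.66 and -0.47 in CCND1 knockdown and -2.17, -1.76 and -1.09 in CDK6 knockdown. TNFAIP3 in CCND1 knockdown differed by -1.08 from NT3 alone and by -0.42 from NT4 alone, which did not pass (limma adjusted p = 0.191). Of the list, 19 members were lower in CCND1 knockdown than in NT3 alone (18.7% of all genes) and 7 lower than in NT4 alone (9.24% of all genes). For CDK6 knockdown the counts were 21 (23.6% of all genes) and 18 (15.7% of all genes). ICAM1, an adhesion receptor for leukocytes that was chosen after its values were seen, was at 3697, 3867 and 4964 against 1878, 2242 and 1620.0 (fold 2.18). The 3 non-targeting NT4 libraries held ICAM1 at 2605, 3648 and 2789 and the NT3 libraries at 4608, 4211 and 3956.

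Interferon-stimulated genes separated the knockdowns less clearly. Of 41 tested members 5 were higher in CCND1 knockdown and 1 in CDK6 knockdown (14.6%, near the 12.9% of all genes), and the median difference was 0.21. Against the controls the list was low in both: 38 members were lower in CCND1 knockdown (14.7% of all genes) and 38 in CDK6 knockdown (21.1% of all genes), with medians of -0.91 and -1.20. CXCL10, an interferon-induced chemokine, was at 370.1, 414 and 620.3 against 176, 256 and 144 (1.29, SE 0.25, adjusted p = 0.00126). OASL, an oligoadenylate synthetase-like protein, was at 55.3, 77.9 and 84.4 against 22.4, 42.9 and 31.6 (1.17, SE 0.28, adjusted p = 0.00633), and its call was lost without CDK6 knockdown replicate 1. Without 1 of the 6 libraries 1 to 6 members were higher in CCND1 knockdown. There were 3 without CCND1 knockdown replicate 2 or CDK6 knockdown replicate 3, 2 without CCND1 knockdown replicate 3 and 1 without CDK6 knockdown replicate 1, which is the lowest library of its group for this list and without which the median was 0.01. Without NT3 replicate 3 there were 8.

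Part of the S phase genes were lower with CDK6 depleted than with cyclin D1 depleted. Of 54 E2F-driven S phase genes, all tested, 15 were higher in CCND1 knockdown (27.8%, against 7.15% of all genes in that direction) and 39 did not pass. The median difference was 0.23. Against the controls, 27 members were lower in CCND1 knockdown (median -0.36; 14.7% of all genes) and 49 in CDK6 knockdown (median -0.58; 21.1% of all genes). The 15 became 7 without CDK6 knockdown replicate 2, 8 without CDK6 knockdown replicate 1 or CCND1 knockdown replicate 2, and 10 to 12 without another of the 6 libraries. The replication licensing factor CDT1 was at 89.3, 90.7 and 79.5 against 56, 48.5 and 54.6 (0.70, SE 0.17, adjusted p = 0.00851), where the 6 non-targeting libraries had a mean of 131 ± 26.1 (SD). UHRF1, which reads hemimethylated DNA for maintenance methylation, was at 249.9, 229 and 238 against 154, 190.1 and 151 (0.54, SE 0.13, adjusted p = 0.00652). WDR76 and ASF1B, also higher in CCND1 knockdown, lost their calls in 5 and 4 of 23 alternative fits. E2F1 itself had a mean of 118 ± 13.2 (SD, n = 3) against 94.6 ± 12.6 and did not pass (0.32, SE 0.11, adjusted p = 0.0684).

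G2 and mitosis genes differed at a rate near that of all genes. Of 51 tested members 5 passed (9.8%, against 12.9% of all genes), each higher in CCND1 knockdown, and the median difference was 0.14. Without CDK6 knockdown replicate 2 there were 3 and the median was 0.01. There were also 3 without CCND1 knockdown replicate 2, and 9 without NT3 replicate 3. MYBL2, a factor that drives mitotic genes, was at 87.2 to 121 against 63.4 to 68 (0.65, SE 0.15, adjusted p = 0.00493). The separase gene ESPL1 had a mean of 116 ± 1.14 (SD, n = 3) against 76.8 ± 21.8 (0.62, SE 0.14, adjusted p = 0.00582). The proliferation marker MKI67 was at 422, 417 and 433 against 419, 355 and 469 (0.04, SE 0.14, 95% interval -0.26 to 0.34, adjusted p = 0.897), and LMNB1, the lamin lost in senescence, had a mean of 94.1 ± 16.3 (SD, n = 3) against 65 ± 10.8 (0.53, SE 0.18, adjusted p = 0.0528). Neither passed.

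**Figure D4:**
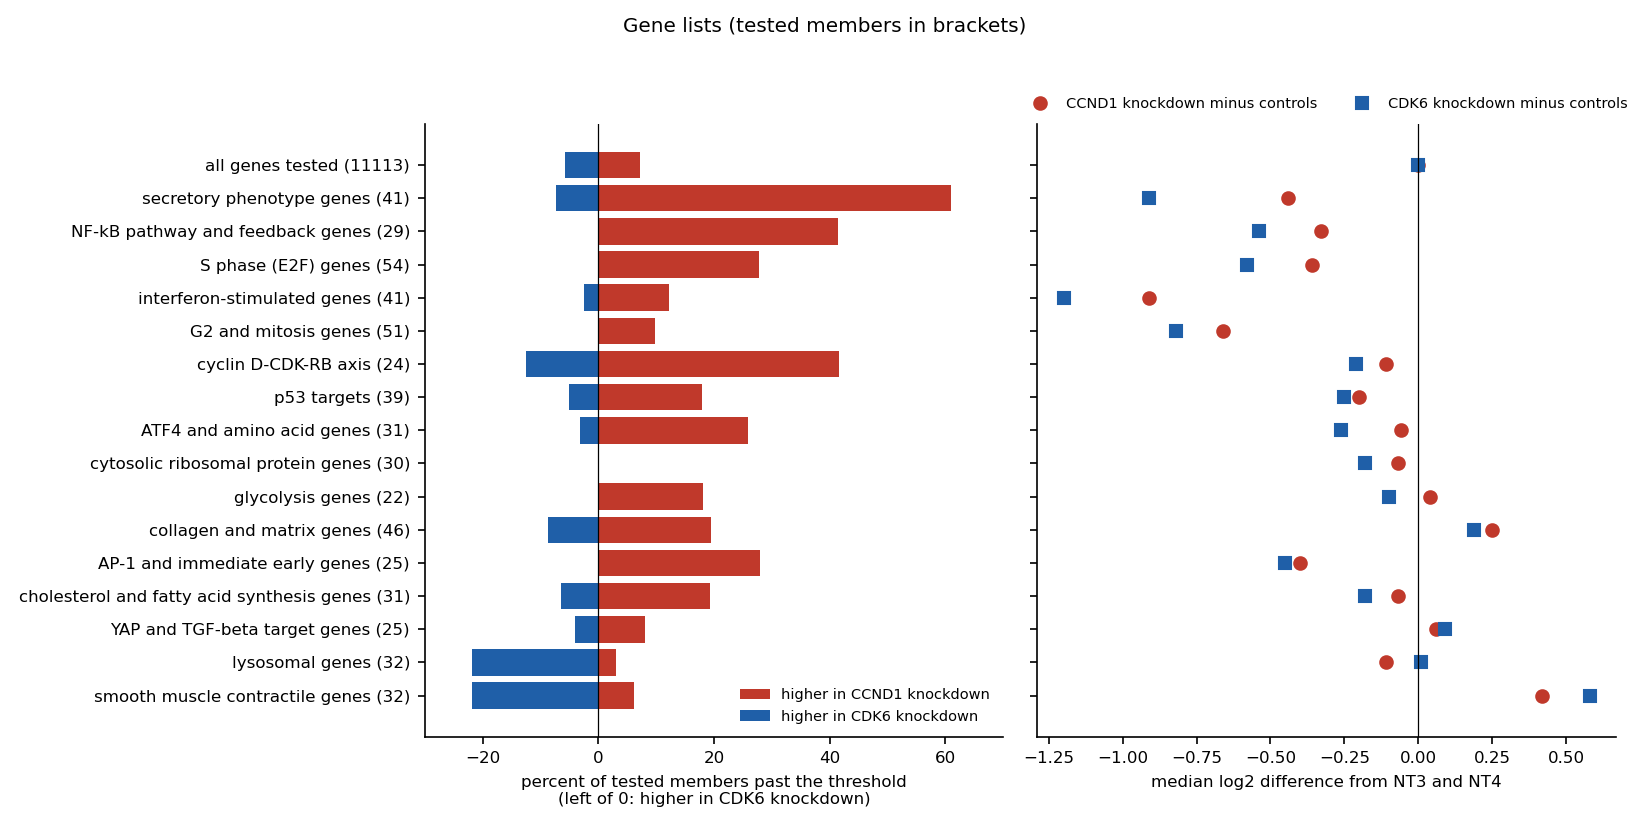
Left, the percent of tested members of each gene list past the threshold, to the right of 0 where higher in CCND1 knockdown (red) and to the left where higher in CDK6 knockdown (blue), with the number of tested members in brackets. Right, each list's median log2 difference from the mean of NT3 and NT4 for CCND1 knockdown (red circles) and CDK6 knockdown (blue squares); the secretory list stands at -0.44 and -0.91 and the smooth muscle list at 0.42 and 0.58.

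Among p53 targets, 39 were tested, 7 were higher in CCND1 knockdown and 2 in CDK6 knockdown (23.1%, against 12.9% of all genes), with a median difference of 0.11. Without 1 of the 6 libraries these were 5 to 6 and 1 to 2, the 2 being kept only without CDK6 knockdown replicate 2. Without NT3 replicate 3 they were 13 and 4, and without NT4 replicate 3 they were 7 and 1. The largest difference ran against the list: SESN1, a stress-induced inhibitor of mTORC1 signalling, was at 215, 221 and 211 in CCND1 knockdown and 421, 344 and 455 in CDK6 knockdown (-0.90, SE 0.10, adjusted p = 1.63e-06), where the non-targeting libraries held 301 to 487. GDF15, a stress cytokine, was at 2789, 2499 and 2823 against 1611, 2049.9 and 1595 (0.63, SE 0.11, adjusted p = 0.000499), with the non-targeting libraries at 5056 to 7139. TNFRSF10B, a TRAIL death receptor, was at 5418, 5678 and 5587 against 3993, 4077 and 3813 (0.49, SE 0.06, adjusted p = 5.30e-06). SESN1 was thus low with cyclin D1 depleted, while GDF15 was lower with CDK6 depleted.

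Of 25 tested AP-1 and immediate early genes 7 passed (28%, against 12.9% of all genes), each higher in CCND1 knockdown, with a list median of 0.05. FOSL1, a Fos family subunit of AP-1, was at 2227, 2060.2 and 2431 against 1697, 1888 and 1624 (0.37, SE 0.08, adjusted p = 0.00379). It passed in every alternative fit, while the calls of DUSP4, ATF3 and MYC were lost in 12, 4 and 9 of 24. Without CCND1 knockdown replicate 3, or without CDK6 knockdown replicate 1, 2 members passed, and 3 without CCND1 knockdown replicate 2 or CDK6 knockdown replicate 3. The list median was 0.00 without CCND1 knockdown replicate 3. Of 31 ATF4 and amino acid genes 8 were higher in CCND1 knockdown and 1 in CDK6 knockdown (29%, against 12.9% of all genes), with a median of 0.11. Without NT3 replicate 3 these were 10 and 2. PSAT1, an enzyme of serine synthesis, was at 1076, 1189 and 1100.2 against 764, 579 and 666 (0.75, SE 0.10, adjusted p = 3.43e-05), and the non-targeting libraries lay between the groups at 780.4 to 976. SLC38A2, a neutral amino acid transporter, went the other way, at 21269.5, 21574 and 20118 against 29412, 28006 and 31095 (-0.49, SE 0.08, adjusted p = 0.000227).

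Matrix genes parted in both directions. Of 46 tested collagen and matrix genes, 9 were higher in CCND1 knockdown and 4 in CDK6 knockdown (28.3%, against 12.9% of all genes), with a median of 0.09. The fit of the 6 libraries alone gave 17 and 7 (22.0% of all genes called; 11.7% and 10.4% by direction), and that without NT3 replicate 3 gave 14 and 7. The 4 became 2 without CCND1 knockdown replicate 1 or CDK6 knockdown replicate 2. FN1, fibronectin, among the most abundant transcripts of these cells, was at 242657, 236646 and 230788 in CCND1 knockdown and at 119808, 106619 and 113516 in CDK6 knockdown (1.06, SE 0.12, adjusted p = 3.80e-06). The basement membrane gene NID2 was at 7676, 7374 and 8052 against 4302, 4665 and 4325 (0.80, SE 0.10, adjusted p = 9.32e-06). Hyaluronan genes moved apart: the synthase HAS2 was at 269, 277 and 333 against 161, 142 and 166 (0.90, SE 0.12, adjusted p = 1.84e-05), while CEMIP, which promotes hyaluronan breakdown, was at 6290.5, 7085 and 6935 against 11835, 10106 and 11224 (-0.71, SE 0.15, adjusted p = 0.00219). HAS2 lay below the non-targeting libraries (388 to 728) in both knockdowns, and CEMIP above them (3009.6 to 5612) in both. The small proteoglycan DCN was also higher in CDK6 knockdown, at 25739, 21153 and 24182 against 17564, 18099 and 16880.3 (-0.43, SE 0.10, adjusted p = 0.00438).

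Some genes lay on opposite sides of the mean of NT3 and NT4, past the threshold in each comparison, and those described here are the ones named by the selection rule. MMP1 was 0.40 above it in CCND1 knockdown (SE 0.07, limma adjusted p = 0.000396) and differed by -1.03 in CDK6 knockdown (SE 0.07, adjusted p = 8.64e-10), and held this pattern against NT3 and NT4 taken alone. DPP4, a cell surface peptidase, was at 2948, 2949 and 3413 in CCND1 knockdown, 1359.8, 1665 and 1208 in CDK6 knockdown and 2041 to 2769.7 in the non-targeting libraries. Its differences from the controls were 0.38 (adjusted p = 0.00104) and -0.76 (adjusted p = 1.76e-07), and it too held against either control alone. SYNJ2BP, a mitochondrial outer membrane protein, was the reverse, at 515, 491 and 489 against 894, 873 and 959.9 with non-targeting libraries at 542 to 821, and its differences of -0.50 (adjusted p = 9.87e-05) and 0.37 (adjusted p = 0.00124) held against either control alone.

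PSAT1 and NID2, with levels given above, were of this kind too. PSAT1 differed from the controls by 0.33 (adjusted p = 0.00721) in CCND1 knockdown and -0.42 (adjusted p = 0.000764) in CDK6 knockdown and passed against either control alone. NID2 differed by 0.32 (adjusted p = 0.00717) and -0.48 (adjusted p = 0.000124), but did not pass in CCND1 knockdown against NT4 alone (0.24, adjusted p = 0.094).

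For FN1, RGS4, SLC7A2, USP24, ATP8B2 and EML4 the pattern depended on the control. FN1 differed from the controls by 0.47 in CCND1 knockdown (adjusted p = 0.00189) and -0.59 in CDK6 knockdown (adjusted p = 0.000131), but NT3 replicate 3, at 105446, lay below the CDK6 knockdown libraries, and against NT4 alone the CCND1 knockdown difference of 0.24 did not pass (adjusted p = 0.185). RGS4, an inhibitor of G protein signalling, was at 808, 681 and 659.5 against 338, 259 and 324 (1.22, SE 0.10, adjusted p = 4.29e-08). It was above all non-targeting libraries (218 to 553) in CCND1 knockdown, while its CDK6 knockdown difference was 0.34 against NT3 alone and -0.83 against NT4 alone. SLC7A2, a cationic amino acid transporter, differed in CCND1 knockdown by -0.17 from NT3 and 1.05 from NT4. The deubiquitinase USP24 (-0.95), ATP8B2 (-0.79) and EML4 (-0.66), all higher in CDK6 than in CCND1 knockdown, did not pass against 1 of the controls in at least 1 knockdown.

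**Figure D5:**
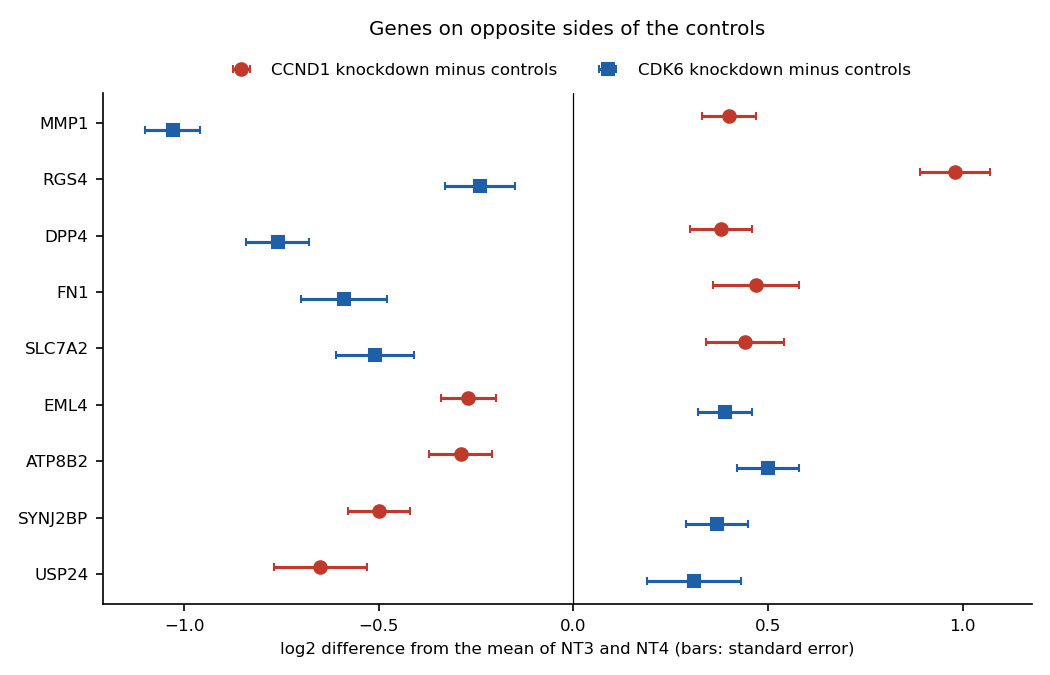
Log2 difference from the mean of NT3 and NT4, with standard error bars, in CCND1 knockdown (red circles) and CDK6 knockdown (blue squares) for 9 genes past the threshold in opposite directions, those with the largest direct differences each way, CCND1 left out. MMP1 stands at 0.40 and -1.03 and SYNJ2BP at -0.50 and 0.37; both series use the same non-targeting libraries.

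Other abundant genes led the difference without belonging to a list. RTL8A, a gene derived from a retrotransposon with close relatives whose reads may be shared, was at 668, 656 and 658 in CCND1 knockdown and 297, 243 and 206 in CDK6 knockdown (1.42, SE 0.11, adjusted p = 1.12e-08), with non-targeting libraries at 529 to 778. CLDN12, a claudin, was at 638, 663 and 662 against 273, 253 and 297 (1.25, SE 0.08, adjusted p = 1.26e-09). POU2F2, a transcription factor known from B cells, was at 897, 984 and 1338 against 453, 508 and 378 (1.25, SE 0.14, adjusted p = 2.45e-06). For these 3 genes the CDK6 knockdown libraries lay under all 6 non-targeting libraries.

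On the other side, PDZD8, which tethers the endoplasmic reticulum to other organelles, was at 322, 260.3 and 333 in CCND1 knockdown and 866, 859 and 829 in CDK6 knockdown (-1.49, SE 0.11, adjusted p = 3.85e-09). The non-targeting libraries held PDZD8 at 635 to 896, so it was low in CCND1 knockdown (-1.43, SE 0.09, adjusted p = 7.88e-10) and differed by 0.05 in CDK6 knockdown (adjusted p = 0.683). SYT11, a synaptotagmin of vesicle traffic, was instead high in CDK6 knockdown, at 2904, 3312 and 3035 against 1602, 1592 and 1774 in CCND1 knockdown (-0.90, SE 0.07, adjusted p = 2.18e-08), above non-targeting libraries of 985 to 1471. Dual knockdown, also depleted of CDK6, held SYT11 inside that range, at 1332, 1331 and 1352. CHL1, an adhesion molecule, was at 571, 744 and 681 in CDK6 knockdown and 385, 354 and 364 in CCND1 knockdown (-0.85, SE 0.13, adjusted p = 0.000164). In dual knockdown CHL1 was at 373, 379 and 382, below the CDK6 knockdown libraries. GPRC5A, an orphan receptor, was at 5744, 5179 and 5950.3 in CDK6 knockdown and 3037, 3332 and 3171 in CCND1 knockdown (-0.82, SE 0.07, adjusted p = 5.67e-08). DHTKD1, a mitochondrial enzyme of lysine breakdown, was at 754, 772 and 776 in CDK6 knockdown and 407, 428 and 408 in CCND1 knockdown (-0.89, SE 0.08, adjusted p = 1.47e-07). NT3 libraries held DHTKD1 at 240.3 to 312 and NT4 libraries at 511 to 579, and dual knockdown, at 790.3, 714 and 747, stood near CDK6 knockdown.

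Of 32 tested members of the smooth muscle contractile list, 21 were higher than the controls in CCND1 knockdown and 0 lower (17.5% of all genes were higher). In CDK6 knockdown 23 were higher and 1 lower (22.0% of all genes were higher). The list's medians against the controls were 0.42 and 0.58. In the direct comparison 7 members were higher in CDK6 knockdown and 2 in CCND1 knockdown (28.1%, against 12.9% of all genes), with a median difference of -0.11. The 7 became 3 to 5 when any 1 of the 6 libraries was left out, lowest without CCND1 knockdown replicate 1. The members described here do not encode contractile proteins. GUCY1B1, a guanylate cyclase subunit, was higher in CDK6 knockdown and ranged from -1.40 to -0.94 over the alternative fits. Its call was lost without CCND1 knockdown replicate 1 or 3 or CDK6 knockdown replicate 1 or 3. CORIN, a protease that activates natriuretic peptides, was at 401, 442 and 334 in CCND1 knockdown and 745, 600.1 and 696 in CDK6 knockdown (-0.80, SE 0.15, adjusted p = 0.00111), all above the non-targeting libraries (148 to 226). IRAG1, a substrate of cyclic GMP-dependent kinase, was at 2248, 2137 and 2237 against 3557, 3397 and 3363 (-0.64, SE 0.12, adjusted p = 0.00111), with non-targeting libraries at 479 to 1313. MYOCD, the coactivator that drives smooth muscle genes, went the other way, at 484, 497 and 599 against 321, 271 and 266 (0.88, SE 0.12, adjusted p = 2.57e-05). Of 25 tested YAP and TGF-beta targets 2 were higher in CCND1 knockdown and 1 in CDK6 knockdown (12%, near the 12.9% of all genes), which became 1 to 2 and 0 without 1 of the 6 libraries and 2 and 3 without NT3 replicate 3. ANKRD1, a YAP target, was at 421, 409.7 and 512 against 256, 273 and 205 (0.87, SE 0.15, adjusted p = 0.000391).

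Metabolic and organelle lists differed by small amounts. Of 32 tested lysosomal genes 7 were higher in CDK6 knockdown and 1, the cathepsin gene CTSS, in CCND1 knockdown (25%, against 12.9% of all genes), with a median of -0.10. HEXA, a hexosaminidase subunit, was at 1941, 2040.0 and 1951 against 2470.3, 2458 and 2482 (-0.32, SE 0.05, adjusted p = 7.71e-05), and without any 1 of the 6 libraries 3 to 4 lysosomal genes were higher in CDK6 knockdown, without NT3 replicate 3 11. Of 31 cholesterol and fatty acid synthesis genes 6 were higher in CCND1 knockdown and 2 in CDK6 knockdown (25.8%, against 12.9% of all genes; 4 to 5 and 1 to 2 without 1 of the 6 libraries, 10 and 3 without NT3 replicate 3), among them INSIG1, which restrains sterol synthesis, at 509, 549 and 517 against 303, 365 and 379 (0.59, SE 0.09, adjusted p = 9.00e-05). Of 22 glycolysis genes 4 passed (18.2%, against 12.9% of all genes), each higher in CCND1 knockdown. There were 1 to 3 without 1 of the 6 libraries, 6 without NT3 replicate 2 and 10 without NT3 replicate 3. The largest of the 4 differences was that of lactate dehydrogenase LDHA, at 20835, 19694 and 21038 against 15519.7, 13347 and 14508 (0.51, SE 0.08, adjusted p = 0.000185). The calls of ENO2, ENO1 and PGAM1 were lost in 5, 7 and 9 of 24 alternative fits. Of 30 cytosolic ribosomal protein genes 0 passed with limma, edgeR or DESeq2, 0 had an unadjusted limma p under 0.05, and their median was 0.10. With the 6 libraries fitted alone 12 were higher in CCND1 knockdown (40%, against 11.7% of all genes in that direction). Without NT3 replicate 3 there were 5, where 1325 of all 11113 genes were higher in CCND1 knockdown.

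Dual knockdown against CDK4 knockdown offers a view of CDK6 loss from group means that the direct comparison does not use. Both comparisons come from 1 fit, so these libraries also entered the spread behind the direct calls. The 2 sets of calls are thus not independent. In dual against CDK4 knockdown 3482 genes passed (31.3%; 16.5% higher, 14.8% lower in dual knockdown). Of the 793 genes higher in CCND1 than in CDK6 knockdown, targets left out, 416 (52.5%) were lower in dual than in CDK4 knockdown and 52 (6.56%) were higher, with a median of -0.24. Of the 640 genes higher in CDK6 than in CCND1 knockdown, 364 (56.9%) were higher in dual knockdown and 20 (3.12%) lower, with a median of 0.29. SERPINB2 was at 254, 283 and 278 in dual and 1408, 1227 and 1292 in CDK4 knockdown (-2.26, adjusted p = 2.63e-12), and CXCL8 at 263, 389.8 and 234 against 3506, 2721 and 3744 (-3.51, adjusted p = 1.08e-08). PDZD8 and SESN1, which were low in CCND1 knockdown, differed there by -0.06 and -0.06 (adjusted p = 0.719 and 0.709). The secretory list had a median of -1.09 in that comparison and the S phase list -1.09, beside 0.01 over all genes. Lists that hardly parted the 2 knockdowns directly were lower still. The median was -2.51 for G2 and mitosis genes (9.8% called directly) and -1.77 for interferon-stimulated genes (14.6%).

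Genes whose log2 values over all 21 libraries followed a target most closely were found by Pearson correlation, as a description over libraries that share groups and treatments. CCND1 was followed most closely by the zinc transporter SLC39A9 (r = 0.906), ARCN1 (0.870), SLC18A2 (0.853), SESN1 (0.852) and DUS1L (0.850). CDK6 was followed by the splicing factor kinase SRPK1 (0.937), CLDN12 (0.930), the angiogenic factor VEGFA (0.925), SLC39A14 (0.921) and IL4R (0.919). The 6 libraries compared are among the 21, so the choice of these genes favoured a difference between the knockdowns. The p-values of such genes add no separate support. VEGFA was at 1975, 1826 and 1933 in CCND1 knockdown and 1345, 1240.2 and 1320.2 in CDK6 knockdown (0.55, SE 0.06, adjusted p = 3.19e-06). SLC39A9 was at 1203, 1198 and 1325 against 1743, 1759 and 1780.0 (-0.50, SE 0.06, adjusted p = 1.16e-05).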

How the data were processed

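RNA was sequenced from IMR90 fibroblasts after poly(A) capture, per the labels' protocols. The deposited signal is 1 normalised count per gene and library, and the authors divided each read count by 1 size factor per library: 100% of values returned whole reads within a tolerance of 0.05. The submitters' processing notes list Trimmomatic 0.38.1, HISAT2 2.2.1, featureCounts 2.0.3 and DESeq2 2.11.40.8 with hg38, without saying which step used what. The strand setting, annotation and treatment of shared reads are not given in the sources used here. The table lists 16383 genes, 19 without a symbol, and no row for unassigned reads was used.

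Values were taken to log2 after adding a pseudocount of 1, and limma 3.58.1 (R 4.3.3) was run over all 21 libraries, with 1 mean per group, a trended variance, two-sided tests and Benjamini-Hochberg adjustment over 11113 genes at 0.05. Precision rests on 3 libraries per group and on 15455036 to 17592641 reads per library. Genes named are a panel of cell cycle and secretory genes, the 10 largest differences in each direction without overlapping libraries and with a higher mean above 508.7, up to 4 called members per list, up to 5 genes in each direction opposite to the controls and 5 most like each target. Members and lists were chosen with earlier results of these data known. Columns carry no replicate number, so replicates are named in column order. Alternatives used edgeR 4.0.16 and DESeq2 1.42.0 on the recovered reads, other pseudocounts (0.1 and 10), filters and scalings, and fits without single libraries. Scripts were tested on simulated data. Promoters were matched by symbol to RefSeq tables, and 9026 tested genes had one.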

Additional observations from a re-analysis of the deposited data

How the results depend on the processing

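The count of 1436 genes was 2449 in a fit of the 6 libraries alone, 2436 without NT3 replicate 3, 2445 with edgeR on the recovered reads of the 6 alone (chosen after seeing the data) and 76 with an absolute log2 difference over 1. Leaving out 1 library gave 936 to 2436. The CCND1 knockdown count of 3577 against the controls was 2244 with NT4 alone; a fit of the 6 libraries alone holds no controls and gives neither control comparison. List medians moved as follows: the cyclin D axis (0.12) to 0.21 with no filter and 0.02 with a mean of 100, cholesterol genes (0.04) to 0.08 with that filter and 0.05 with median centring, and glycolysis (0.10) to 0.14 with quantile normalization. Among the named genes 97 passed, 73 of them in every alternative, and 24 were lost in 1 or more; 3 that had not passed did so in 1 or more. RB1 turned to -0.01 with quantile normalization.

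With 1 library left out, medians ranged from 0.06 to 0.16 for the cyclin D axis, 0.21 to 0.30 for S phase genes, 0.08 to 0.17 for p53 targets, -0.11 to -0.08 for smooth muscle genes, 0.05 to 0.09 for matrix genes, 0.04 to 0.06 for cholesterol genes, 0.10 to 0.14 for glycolysis genes, 0.08 to 0.15 for ATF4 genes, -0.14 to -0.10 for lysosomal genes, 0.01 to 0.21 for G2 and mitosis genes, 0.01 to 0.32 for interferon-stimulated genes, 0.00 to 0.15 for AP-1 genes, -0.02 to 0.03 for YAP and TGF-beta targets, 0.26 to 0.37 for NF-kB genes and 0.46 to 0.60 for secretory genes. RB1 ranged from -0.03 to 0.05 and MKI67 from -0.07 to 0.14.

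Library numbers in the column headers fall in 3 runs holding 1 library of every irradiated group. Same-run deviations of the CCND1 and CDK6 knockdown libraries from their group means correlated at 0.093, 0.025 and 0.090 over all tested genes. Pairs from different runs gave -0.097 to 0.004. Deviations from a group mean cancel within the group, so positive same-run values push the different-run values down. The contrast between the pairs is thus no separate sign of likeness, and the same-run values were small. Single genes can share more. CCND1 knockdown replicate 3 and CDK6 knockdown replicate 2, of 1 run, were each the highest of their group for CXCL8 and TNFAIP3. The main fit does not use the runs. A replicate block on the runs, chosen after seeing the data, gave 1290 genes. The labels' replicate numbers are not in the columns, so a block on them was not run. With 3 libraries per group and few reads for genes such as CCL20, small differences are not detectable at this depth.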

Other observations

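The largest difference higher in CCND1 knockdown among all tested genes was in EHF, an epithelial ETS transcription factor chosen here after its values were seen. It was at 161, 169.6 and 332 in CCND1 knockdown and 19.3, 16.8 and 14.4 in CDK6 knockdown (3.56, SE 0.51, limma adjusted p = 4.74e-05). NT3 libraries held EHF at 345, 487 and 314, NT4 libraries at 150.1 ± 39.6 (SD, n = 3), CDK4 knockdown at 206, 163 and 205, dual knockdown at 9.93, 39.3 and 10, and proliferating cells at 5.24, 3.19 and 0. FGL2, a fibrinogen-like protein also chosen after its values were seen, was at 85.1, 85.4 and 92.3 in CCND1 knockdown. In CDK6 knockdown FGL2 was at 236, 266 and 313 (-1.61, SE 0.14, limma adjusted p = 9.78e-08). NT3 libraries held FGL2 at 53.2 to 56.1, NT4 libraries at 69 to 73 and CDK4 knockdown at 45.5, 42.6 and 32.4. Proliferating cells held FGL2 at 96.7 ± 13.3 (SD, n = 3). Dual knockdown, also depleted of CDK6, held FGL2 at 53, 55.7 and 56.1, below the CDK6 knockdown libraries. Its difference from the mean of NT3 and NT4 did not pass (-0.18, limma adjusted p = 0.247).

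Some genes with large fitted differences did not pass, and the libraries of CCND1 knockdown differed widely for PTPRK and SLC25A6, which were chosen after their values were seen. PTPRK was at 9.6 to 345 in CCND1 knockdown and 14.2, 15.8 and 11.5 in CDK6 knockdown. SLC25A6 was at 506, 17.1 and 17.7 in CCND1 knockdown.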
